A study of Arabidopsis thaliana with 60 samples.

Results

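The genes described here are 37 nuclear genes of Arabidopsis thaliana that encode the chlorophyll-binding antenna proteins and the nuclear subunits of photosystems I and II. They are given by a list of locus identifiers, with no measured value in the rule, out of 37967 loci in the count tables. The list holds 8 genes of the major antenna LHCII, which are LHCB1.1 (AT1G29920), LHCB1.2 (AT1G29910), LHCB1.3 (AT1G29930), LHCB1.4 (AT2G34430), LHCB1.5 (AT2G34420), LHCB2.1 (AT2G05100), LHCB2.2 (AT2G05070) and LHCB3 (AT5G54270). The minor photosystem II antenna has 5, LHCB4.1 (AT5G01530), LHCB4.2 (AT3G08940), LHCB4.3 (AT2G40100), LHCB5 (AT4G10340) and LHCB6 (AT1G15820), and the photosystem I antenna 4, LHCA1 (AT3G54890), LHCA2 (AT3G61470), LHCA3 (AT1G61520) and LHCA4 (AT3G47470). The 10 photosystem I subunits are PSAD1 (AT4G02770), PSAD2 (AT1G03130), PSAE1 (AT4G28750), PSAF (AT1G31330), PSAG (AT1G55670), PSAH2 (AT1G52230), PSAK (AT1G30380), PSAL (AT4G12800), PSAN (AT5G64040) and PSAO (AT1G08380). The 5 proteins of the oxygen-evolving complex are PSBO1 (AT5G66570), PSBO2 (AT3G50820), PSBP1 (AT1G06680), PSBQ1 (AT4G21280) and PSBQ2 (AT4G05180), and the 4 small photosystem II proteins are PSBR (AT1G79040), PSBW (AT2G30570), PSBX (AT2G06520) and PSBY (AT1G67740). The last is PSBS (AT1G44575), which acts in photoprotection. All 37 passed the filter on low counts in every comparison.

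RNA from stems was sequenced in 5 groups of 3 samples. The HCT-RNAi line, in which RNA interference silences the lignin enzyme HCT, and the line labelled gpt2-1, a mutant of the plastid glucose 6-phosphate translocator GPT2, were set against a first set of wild-type Col-0 (set 1), and these 9 samples are called trial 1 here. The 35S GPT2 line, which overexpresses GPT2 from the 35S promoter, a viral promoter active in most plant cells, was set against a second set of Col-0 (set 2), called trial 2. Every group was grown alike, for 9 to 10 weeks on 0.5x strength Noren medium. The labels call the samples biological replicates but name neither the number of plants in a sample nor the number of independent lines, so the p-values measure the spread between these samples. The design asks how GPT2 expression and lignin synthesis are related.

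In the thylakoid membrane of the chloroplast, antenna proteins bind chlorophyll and pass light energy to the reaction centres of photosystems II and I. LHCB1, LHCB2 and LHCB3 form the trimers of LHCII, LHCB4 to LHCB6 link these trimers to the photosystem II core, and LHCA proteins form a belt on photosystem I. The core subunits that carry the reaction-centre pigments are encoded in the plastid, while antenna and peripheral subunits are encoded in the nucleus and imported. Green stems photosynthesise mainly in the chlorenchyma, the chloroplast-rich cells beneath the epidermis.

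LHCB1 is encoded by 5 near-identical genes, which makes the split of reads among copies a limit of every LHCB1 value. Among 678 coding positions compared, 97 differed among the copies and 38 among LHCB1.1, LHCB1.2 and LHCB1.3. The coding sequences of LHCB1.1 and LHCB1.2 were 95.6% identical and encoded the same protein, whereas LHCB1.4 was between 86.8% and 91.4% identical to the others. The 90-base window with the most differences among LHCB1.1 to LHCB1.3 is printed because these letters are what lets a read be assigned to a copy. Capitals mark the 22 positions at which the copies differ, the sequences are RefSeq TAIR10.1, 5′ to 3′ on the coding strand, and the window starts at coding base 184 in LHCB1.1 to LHCB1.3, 181 in LHCB1.4 and 178 in LHCB1.5.
LHCB1.1 (chr1:10475620-10475709, minus strand): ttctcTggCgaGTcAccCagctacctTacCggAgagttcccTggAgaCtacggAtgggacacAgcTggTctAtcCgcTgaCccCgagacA
LHCB1.2 (chr1:10472974-10473063, minus strand): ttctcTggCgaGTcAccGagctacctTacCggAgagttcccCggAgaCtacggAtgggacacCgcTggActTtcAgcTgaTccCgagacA
LHCB1.3 (chr1:10478254-10478343, plus strand): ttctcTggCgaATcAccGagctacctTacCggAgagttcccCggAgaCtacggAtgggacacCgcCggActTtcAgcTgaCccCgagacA
LHCB1.4 (chr2:14524998-14525087, plus strand): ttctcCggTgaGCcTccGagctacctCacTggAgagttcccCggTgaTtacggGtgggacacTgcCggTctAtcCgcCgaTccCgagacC
LHCB1.5 (chr2:14523247-14523336, minus strand): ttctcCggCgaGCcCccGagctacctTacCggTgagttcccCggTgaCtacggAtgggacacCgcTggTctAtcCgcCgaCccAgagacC
Of all 50-base stretches of the exons, 79.5% in LHCB1.1, 89.4% in LHCB1.2, 83.0% in LHCB1.3, 86.3% in LHCB1.4 and 82.7% in LHCB1.5 were found once in the genome. LHCB2.1, LHCB2.2 and LHCA2 had 76.5%, 70.5% and 88.6%. In the other 29 genes every stretch was found once, so repeated sequence bears on 8 genes.

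The sequences just before the transcription start are shown for 6 genes that carry the comparisons below. LHCB2.1, LHCB2.2, LHCA4 and PSAH2 had the largest differences among the genes called between the effects of the 35S GPT2 line and the line labelled gpt2-1, and LHCB6 and LHCB1.3 rose in HCT-RNAi and fell in the libraries labelled gpt2-1. Each line holds the last 150 bases before the annotated start, 5′ to 3′ in the direction of transcription (TAIR10.1), and capitals mark the I-box GATAAG, the G-box CACGTG or CCAATC, read on both strands.
LHCB2.1 (chr2:1824481-1824630, minus strand): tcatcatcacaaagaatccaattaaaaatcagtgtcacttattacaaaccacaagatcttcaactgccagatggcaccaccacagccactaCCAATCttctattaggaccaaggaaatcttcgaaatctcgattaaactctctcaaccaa
LHCB2.2 (chr2:1800473-1800622, minus strand): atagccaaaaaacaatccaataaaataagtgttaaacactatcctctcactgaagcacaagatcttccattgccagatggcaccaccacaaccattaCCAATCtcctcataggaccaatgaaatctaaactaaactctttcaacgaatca
LHCA4 (chr3:17495034-17495183, minus strand): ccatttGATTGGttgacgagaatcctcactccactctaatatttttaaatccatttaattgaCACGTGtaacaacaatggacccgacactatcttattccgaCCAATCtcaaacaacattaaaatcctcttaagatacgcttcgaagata
PSAH2 (chr1:19454648-19454797, plus strand): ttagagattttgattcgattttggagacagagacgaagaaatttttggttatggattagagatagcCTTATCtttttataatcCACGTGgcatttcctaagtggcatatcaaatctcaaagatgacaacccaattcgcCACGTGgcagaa
LHCB6 (chr1:5447881-5448030, minus strand): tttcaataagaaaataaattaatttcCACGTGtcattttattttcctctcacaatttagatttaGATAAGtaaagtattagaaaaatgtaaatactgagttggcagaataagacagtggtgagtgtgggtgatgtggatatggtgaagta
LHCB1.3 (chr1:10477735-10477884, plus strand): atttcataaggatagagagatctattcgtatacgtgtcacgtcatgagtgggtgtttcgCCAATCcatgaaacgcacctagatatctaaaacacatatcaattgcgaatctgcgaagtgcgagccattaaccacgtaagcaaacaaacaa
These motifs are known from light-regulated plant promoters. In the 250 bases before the start, the I-box was found in 9 of the 37 genes (24.3%), against 12.3% of 27443 promoters of the same length. The G-box was found in 6 genes (16.2%, against 6.49% of all promoters) and CCAATC in 10 (27.0%, against 10.2%). The evening element AAAATATCT was found in none of the 37, and in 2.36% of all promoters. None of the 4 motifs contains another. A match is a run of letters and no shown binding site.

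The deposited tables needed a check of their row labels before any comparison. In 5 tables, those of the 3 Col-0 set 2 samples and of 35S GPT2 samples 2 and 3, counts correlated with the first Col-0 set 1 table with Spearman's rho between 0.097 and 0.108 as labelled. Read in the row order of the first 35S GPT2 table, the same tables gave rho between 0.884 and 0.925. All trial 2 values below use that order, and they depend on it. Total counts were 23041771 to 26129812 in HCT-RNAi, 21352999 to 22618598 in the libraries labelled gpt2-1, 16591700 to 24150608 in Col-0 set 1, 3827816 to 12536593 in 35S GPT2 and 5258309 to 31713084 in Col-0 set 2. Levels are given as CPM, a gene's counts scaled to the library total. HCT had 143 to 158 CPM in HCT-RNAi and 365 to 403 in Col-0 set 1. GPT2 had 113, 113 and 119 CPM in the libraries labelled gpt2-1 and 1.49, 1.2 and 1.51 CPM in Col-0 set 1, which goes against a loss of that transcript, so these are called by their label throughout. In 35S GPT2, GPT2 had 286, 289 and 213 CPM, against 6.47, 1.1 and 1.07 CPM in Col-0 set 2.

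A second check concerned genes whose exons overlap those of a gene on the opposite strand. LHCB1.5 (chr2:14522524-14523568, minus strand) is covered over 100% of its exon bases by the long non-coding gene AT2G08665. LHCB1.5 had 6059, 6177 and 6520.3 CPM in HCT-RNAi, 0 counts in all libraries labelled gpt2-1 and all of Col-0 set 1, and 7549, 4041 and 5934 CPM in Col-0 set 2. AT2G08665 was also at 0 in the libraries labelled gpt2-1 and in Col-0 set 1. PSAG, which helps to hold the photosystem I antenna and has 61.4% overlap, had 1083, 1029 and 1103 CPM in HCT-RNAi after TMM scaling, which evens out differences in library composition, 27.2, 19.8 and 20.3 in the libraries labelled gpt2-1 and 18.8, 24.5 and 24.2 in Col-0 set 1. PSAE1, a stromal photosystem I subunit with 34.1% overlap, had 972, 994 and 1012 CPM in HCT-RNAi, 225, 219 and 225 in the libraries labelled gpt2-1 and 234, 244 and 228 in Col-0 set 1. In trial 2 the same genes had high counts in both groups: PSAG had 955, 839 and 1014 CPM in 35S GPT2 and 888, 646 and 796 in Col-0 set 2, TMM-scaled within that trial. The 3 genes were thus low in the tables of Col-0 set 1 and of the line labelled gpt2-1, in which the gene with the longest overlap was at 0 for each of them. A partner at 0 was not particular to those tables. The PSAE1 partner AT4G28755 was also at 0 in all 35S GPT2 samples, where PSAE1 had a mean of 654 CPM without scaling. The PSAG partner AT1G55673 had 0 to 0.261 CPM in 35S GPT2 and 0 to 0.19 in Col-0 set 2. Folds of these genes in trial 1 cannot be told apart from how the tables were counted. Another 9 genes had overlaps between 2.95% (PSBP1) and 24.8% (PSAH2), and 25 genes had none.

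**Figure D1:**
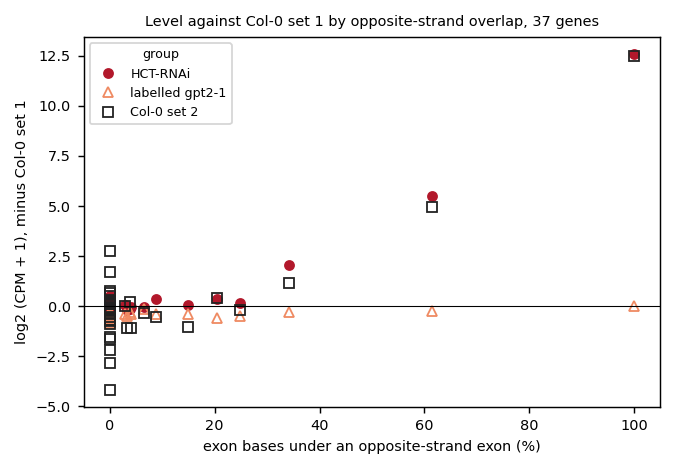
Level of each of the 37 genes in HCT-RNAi, the libraries labelled gpt2-1 and Col-0 set 2, as log2 (CPM + 1) minus that of Col-0 set 1 (y axis), against the percent of its exon length shared with exons of the other strand (x axis), with 1 point per gene and group from the means of 3 samples. LHCB1.5, PSAG and PSAE1, at 100%, 61.4% and 34.1%, lie well above 0 in HCT-RNAi and near 0 in the libraries labelled gpt2-1.

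The genes were among the abundant transcripts of the stem. Leaving out LHCB1.5, PSAG and PSAE1, a choice made after their values were seen, the other 34 genes took 5.62% ± 0.0907 of all counts in HCT-RNAi, 4.15% ± 0.0569 in the libraries labelled gpt2-1 and 5.32% ± 0.293 in Col-0 set 1 (SD, n = 3 each). They took 4.48% ± 0.664 in 35S GPT2 and 3.79% ± 0.655 in Col-0 set 2. The ranges of HCT-RNAi (5.55% to 5.72%) and of the libraries labelled gpt2-1 (4.1% to 4.21%) lay above and below that of Col-0 set 1 (4.98% to 5.51%) without overlap, while those of 35S GPT2 (3.76% to 5.07%) and Col-0 set 2 (3.08% to 4.37%) did. Shares of all counts carry no TMM scaling. By total counts, the median log2 fold change in the libraries labelled gpt2-1 was -0.37 over the members and -0.23 over all genes. In HCT-RNAi these medians were 0.05 and -0.01. The 34 genes still include those with smaller overlaps, LHCB1.3 and LHCB6 among them, whose part in these shares was not tested. In bulk RNA, fewer green cells and less of these transcripts per cell cannot be told apart. LHCII genes took 1.92% ± 0.0351 in HCT-RNAi, 1.23% ± 0.0208 in the libraries labelled gpt2-1 and 1.63% ± 0.121 in Col-0 set 1. Minor antenna genes took 0.615% ± 0.01, 0.451% ± 0.00265 and 0.589% ± 0.043 in the same 3 groups.

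**Figure D2:**
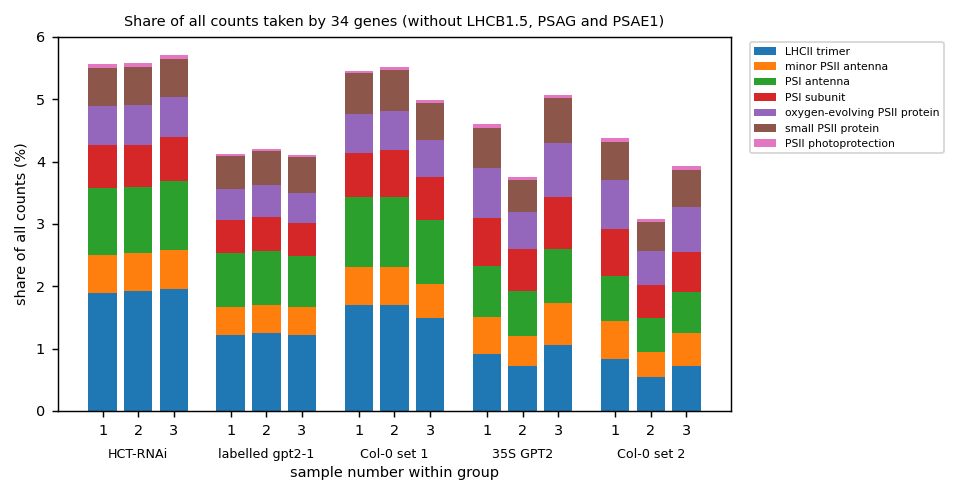
Share of all counts (y axis, percent) taken by the 34 genes without LHCB1.5, PSAG and PSAE1, as 1 stacked bar for each of the 15 samples (x axis), divided by the role of the protein. All 3 bars of the libraries labelled gpt2-1 lie between 4.1% and 4.21%, below the Col-0 set 1 bars at 4.98% to 5.51%. The shares carry no TMM scaling.

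Per kilobase of exon and without scaling, LHCB1.3, PSBR, a small photosystem II protein, and LHCB1.5 where it was counted were the highest of the 37. LHCB1.3 had 7288 CPM per kb in HCT-RNAi, 4416 in the libraries labelled gpt2-1, 5719.8 in Col-0 set 1, 4744 in 35S GPT2 and 3885 in Col-0 set 2. PSBR had 5485, 5144 and 5689 CPM per kb in HCT-RNAi, the libraries labelled gpt2-1 and Col-0 set 1, and 4897 in 35S GPT2 and 4472 in Col-0 set 2. LHCB4.3, a variant of the minor antenna protein LHCB4 also known as LHCB8, was lowest in trial 1 apart from LHCB1.5 at 0, with 24.5 CPM per kb in HCT-RNAi, 17.4 in the libraries labelled gpt2-1 and 26.3 in Col-0 set 1. In trial 2 it had 158 CPM per kb in 35S GPT2 and 179 in Col-0 set 2. LHCB1.1 went the other way between the trials, with 2451 CPM per kb in Col-0 set 1 and 135 in Col-0 set 2, where it was the lowest of the 37. LHCB2.1 had 1299 CPM per kb in Col-0 set 1 and 179.6 in Col-0 set 2, and PSBX, a small photosystem II protein, had 361 and 1161. The wild-type sets differ in their tables and in the counting of overlapping genes. That counting does not follow the trials, as LHCB1.5, PSAG and PSAE1 had high counts in HCT-RNAi as in trial 2. LHCB1.1, LHCB2.1, LHCB4.3 and PSBX have no opposite-strand overlap. The cause of these level differences was not tested, and no test was made between the wild-type sets.

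Among LHCB1.1 to LHCB1.4, the shares of LHCB1.3 and LHCB1.1 differed more between the trials than among the groups of a trial. LHCB1.3 gave 60.5% to 60.9% of the summed counts of LHCB1.1 to LHCB1.4 in HCT-RNAi, 61.0% to 61.1% in the libraries labelled gpt2-1 and 59.4% to 61.0% in Col-0 set 1, against 83.1% to 85.0% in 35S GPT2 and 83.0% to 84.8% in Col-0 set 2. LHCB1.1 gave 25.9% to 26.5%, 28.4% to 28.6% and 27.0% to 28.3% in the trial 1 groups in the same order, and 3.54% to 4.12% in 35S GPT2 and 2.77% to 3.57% in Col-0 set 2. LHCB1.4 gave 3.9% to 4.3% in HCT-RNAi, 3.01% to 3.21% in the libraries labelled gpt2-1 and 3.96% to 4.3% in Col-0 set 1. Where LHCB1.5 was counted, it gave 29.5% to 30.2% of all LHCB1 counts in HCT-RNAi, 47.8% to 51.6% in 35S GPT2 and 47.8% to 52.6% in Col-0 set 2. These shares depend on how the authors' counting split reads among copies. LHCB4.3 gave 1.1% to 1.11% of LHCB4 counts in HCT-RNAi, 0.939% to 1.06% in the libraries labelled gpt2-1 and 1.09% to 1.34% in Col-0 set 1, and 8.78% to 9.48% in 35S GPT2 and 9.4% to 12.2% in Col-0 set 2.

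**Figure D3:**
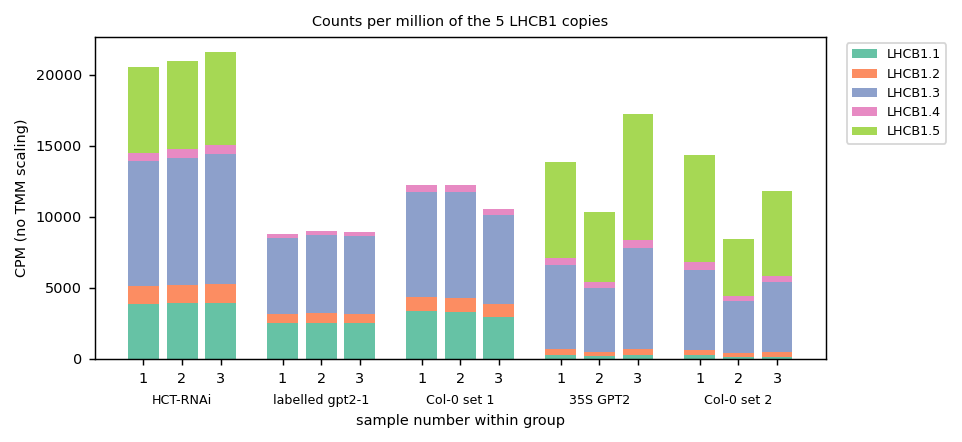
Counts of the 5 LHCB1 copies as stacked bars in CPM without TMM scaling (y axis), 1 bar for each of the 15 samples (x axis). LHCB1.5 is at 0 in all samples labelled gpt2-1 and all of Col-0 set 1, and LHCB1.1, a wide band in trial 1, is a thin one in trial 2.

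HCT-RNAi stems held more transcript of 4 LHCB1 copies, of LHCB6 and of PSBS than Col-0 set 1, by 0.28 to 0.52 on the log2 scale, while most other members differed little. PSBS, the photosystem II protein that senses low lumen pH and switches excess light energy to heat, had 557, 573 and 567 CPM in HCT-RNAi and 407, 389 and 388 in Col-0 set 1. These and later values by sample are scaled by TMM (trimmed mean of M-values) within a trial. The HCT-RNAi samples all lay above the Col-0 samples, a difference of 0.52 on the log2 scale (SE 0.04, adjusted p = 1.56e-11 by edgeR). By edgeR's quasi-likelihood F test with Benjamini-Hochberg adjustment over all genes tested, 12 of the 37 genes were higher and 5 lower at an adjusted p under 0.05, against 29.2% higher, 26.5% lower and 55.7% either way of all 20053 genes tested. The members' shares were 32.4% higher and 13.5% lower, so the share that rose was near the background. Without LHCB1.5, PSAG and PSAE1, 9 of 34 were higher and 5 lower. The groups did not overlap in 21 of the 37, against 60.5% of all genes. The median log2 fold change was 0.06 over the 36 genes with a fold, 0.07 with LHCB1.5 at its lower bound, and 0.00 over all genes.

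Within LHCII, LHCB1.2 had 1247, 1266 and 1283 CPM in HCT-RNAi and 928, 921 and 825 in Col-0 set 1, a difference of 0.50 on the log2 scale (SE 0.04, adjusted p = 1.49e-10 by edgeR). LHCB1.3 had 8400.1, 8512 and 8764 CPM in HCT-RNAi and 7014, 7174 and 5819 in Col-0 set 1 (0.36, SE 0.05, adjusted p = 2.18e-06 by edgeR, 8.78% overlap). Neither pair of groups overlapped, and Col-0 sample 3 was the lowest of its group in both. LHCB1.1 rose by 0.28 and LHCB1.4 by 0.32 (edgeR adjusted p = 1.06e-05 and 9.78e-05). With LHCB1.1 to LHCB1.4 summed to 1 feature, which removes the split among these copies, the log2 fold change was 0.35 (SE 0.05, edgeR adjusted p = 1.65e-06). LHCB1.5 counts were at least 132500-fold higher in HCT-RNAi, against a floor of 3 counts over the Col-0 group, with the full overlap given above. LHCB2.1 was lower (-0.14, edgeR adjusted p = 0.00812), while LHCB2.2 (0.01) and LHCB3 (0.05) did not pass the test.

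Of the minor antenna, LHCB6, which links the trimers to the photosystem II core in land plants, had 905, 891 and 926 CPM in HCT-RNAi and 706, 750 and 625 in Col-0 set 1. It rose by 0.39 without overlap between the groups (SE 0.05, edgeR adjusted p = 1.15e-07), and 20.4% of its exon length is shared with the other strand, whose part in the result was not tested. LHCB4.2 fell by 0.19 (edgeR adjusted p = 0.000603), and LHCB4.1, LHCB4.3 and LHCB5 were not called, at -0.09 to 0.10. Of the photosystem I antenna, LHCA1 rose by 0.12 (edgeR adjusted p = 0.0304) and LHCA2, LHCA3 and LHCA4 were not called.

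Of the photosystem I subunits, PSAD1 and PSAD2, which form the docking site of ferredoxin, fell by 0.14 and 0.10, and PSAN, a lumenal subunit, fell by 0.11 (edgeR adjusted p = 0.0138, 0.0389 and 0.0374). PSAH2, a subunit at the docking side for LHCII, rose by 0.18 (edgeR adjusted p = 0.000484), with 24.8% overlap. PSAG and PSAE1 stood 5.58 and 2.08 higher (SE 0.08 and 0.04, edgeR adjusted p = 2.1e-28 and 2.35e-25), with the overlaps given above. Of the photosystem II proteins other than PSBS, PSBO2, a manganese-stabilising protein of the oxygen-evolving complex, rose by 0.11 (edgeR adjusted p = 0.0336) and the other 8 were not called.

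The number of lower calls rested on single libraries. Of 25 genes without opposite-strand overlap, 6 were higher (LHCB1.1, LHCB1.2, LHCB1.4, LHCA1, PSBO2 and PSBS) and 3 lower (LHCB2.1, PSAD1 and PSAD2). Fitted on genes without such overlap alone, 11 of the 25 were higher and 1 lower, against 25.9% higher and 25.1% lower of 14481 genes, and PSAD1 and PSAD2 were no longer called. Leaving out Col-0 set 1 sample 3 gave 10 members lower, leaving out Col-0 set 1 sample 2 or HCT-RNAi sample 1 gave 3, and leaving out HCT-RNAi sample 2 gave 2. For these refits the share of all genes called is not given here.

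In the libraries labelled gpt2-1, 15 of 17 antenna genes were lower than in Col-0 set 1. LHCB1.5, included in the 17 and in the 37, had 0 counts in both groups and could not be called. Of the 37 genes 24 fell and none rose, against 25.8% lower, 27.4% higher and 53.2% either way of all 20053 genes tested. The members' share of lower calls was 64.9% and their median log2 fold change -0.15, against -0.01 over all genes. The falls were small, between 0.11 and 0.60 on the log2 scale. They covered 7 of 8 LHCII genes, 4 of 5 minor antenna genes, all 4 photosystem I antenna genes, 5 of 10 photosystem I subunits, 2 of 5 oxygen-evolving proteins, 1 of 4 small photosystem II proteins and PSBS. Among the 25 genes without opposite-strand overlap, 17 fell, and 18 when fitted on such genes alone, against 27.3% of 14481 genes. The groups did not overlap in 19 of the 37, against 57.1% of all genes. Without Col-0 set 1 sample 1, 16 members fell, and 31 without its sample 3, with no share of all genes given here for these refits.

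LHCB1.4 fell most, with 294, 301 and 318 CPM in the libraries labelled gpt2-1 and 502, 489.8 and 389 in Col-0 set 1, a difference of -0.60 on the log2 scale (SE 0.06, adjusted p = 6.41e-09 by edgeR). LHCB2.2 had 810.1, 845 and 738 CPM in the libraries labelled gpt2-1 and 1044, 1044 and 903 in Col-0 set 1 (-0.32, SE 0.05, edgeR adjusted p = 7.18e-06). All samples labelled gpt2-1 lay below all wild-type samples in both genes. LHCB1.2 fell by 0.29, LHCB2.1 by 0.22, LHCB1.3 and LHCB3 by 0.15 each and LHCB1.1 by 0.12. The sum of LHCB1.1 to LHCB1.4 fell by 0.17 (SE 0.05, edgeR adjusted p = 0.00728). Leaving out Col-0 set 1 sample 1, it was -0.13 and no longer past the threshold (adjusted p = 0.0668 by edgeR). LHCB1.5 was at 0 counts in both groups, so no fold is given.

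Of the minor antenna, LHCB6 had 543, 548 and 546 CPM in the libraries labelled gpt2-1 and 706, 750 and 625 in Col-0 set 1 (-0.35, SE 0.05, edgeR adjusted p = 7.57e-07). LHCB4.3, at a far lower level, had 28.5, 29.3 and 26.1 CPM in the libraries labelled gpt2-1 and 35.5, 36.4 and 36.3 in Col-0 set 1 (-0.37, SE 0.06, edgeR adjusted p = 3.55e-06). The groups did not overlap in either gene. LHCB4.2 fell by 0.24 and LHCB5 by 0.11, and LHCB4.1 was not called at -0.09. LHCA1 to LHCA4 fell by 0.12 to 0.15.

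Among photosystem I subunits, PSAD2 had 420, 441 and 424 CPM in the libraries labelled gpt2-1 and 551, 598 and 544 in Col-0 set 1 (-0.40, SE 0.04, edgeR adjusted p = 5.16e-09). PSAD1 had 955, 978 and 959.6 CPM in the libraries labelled gpt2-1 and 1196, 1359.8 and 1143 in Col-0 set 1 (-0.36, SE 0.05, edgeR adjusted p = 4.86e-07). Both ferredoxin-docking subunits were lower in every sample labelled gpt2-1 than in any wild-type sample. PSAH2 fell by 0.27, PSAF, the plastocyanin-docking subunit, by 0.17 and PSAO by 0.14, and PSAK, PSAL, PSAN, PSAE1 and PSAG were not called. Of the oxygen-evolving proteins PSBQ1 fell by 0.30 (SE 0.04, edgeR adjusted p = 1.36e-06) and PSBP1 by 0.18, whereas PSBO1, PSBO2 and PSBQ2 were not called at -0.08 to -0.05. PSBX fell by 0.16 and PSBS by 0.15, and PSBR, not called at 0.08, had the highest value of the 37. Under total-count scaling PSBR was called lower (-0.15, edgeR adjusted p = 0.00307).

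The scaling matters to the size of these falls. The TMM factors, which correct for a few genes that take many counts, were 0.9007 to 0.9064 in the libraries labelled gpt2-1 and 1.043 to 1.074 in the other trial 1 libraries. Scaled by total counts alone, the median of all genes moved by -0.22, 36 members were called lower and their median was -0.37, against -0.23 over all genes. The share of all genes called lower under that scaling is not given here, so the count of 36 has no background. The members' median lay below that of all genes under both scalings.

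**Figure D4:**
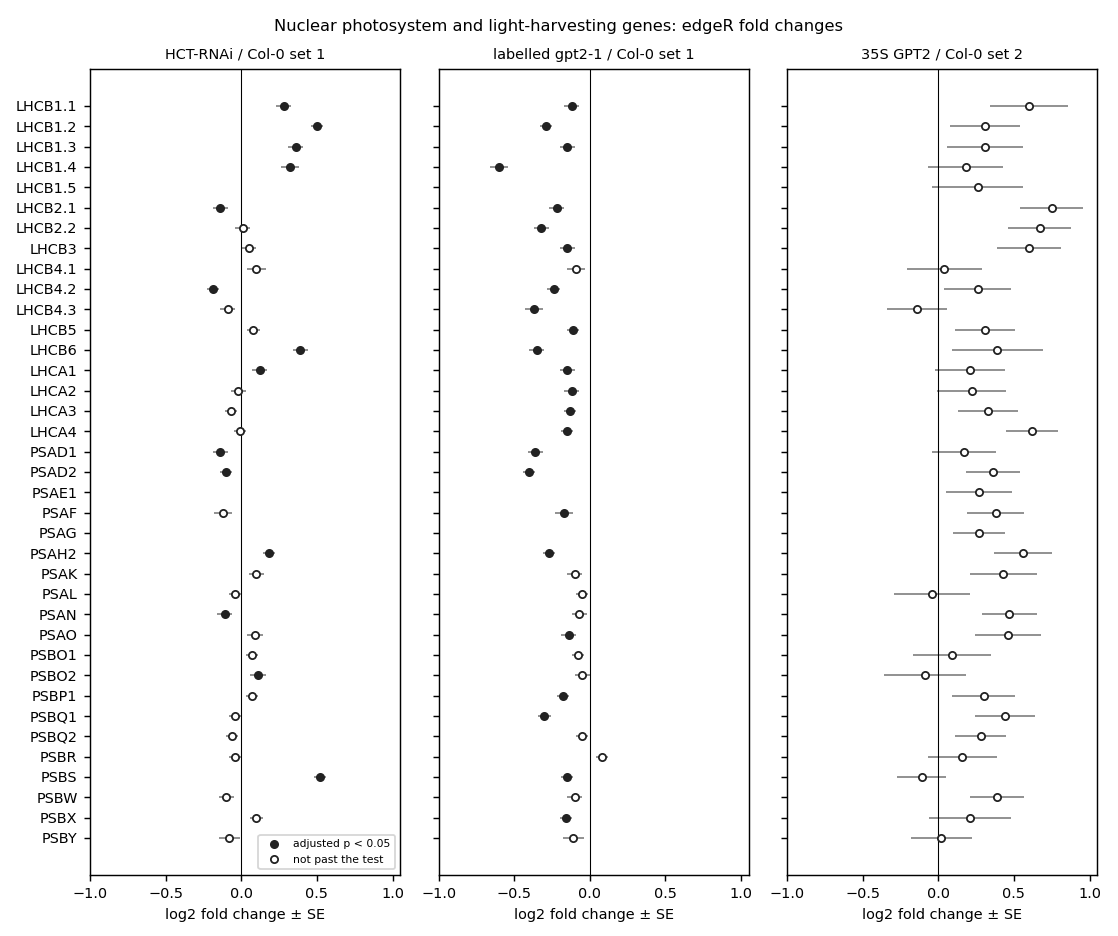
Log2 fold changes from edgeR with standard errors (x axis) of the 37 genes (y axis), for HCT-RNAi over Col-0 set 1, the libraries labelled gpt2-1 over Col-0 set 1 and 35S GPT2 over Col-0 set 2, 3 samples per group, with filled points past an adjusted p of 0.05. LHCB1.5, PSAG and PSAE1 are not drawn in the first panels; the filled points of the libraries labelled gpt2-1 all lie left of 0 and the 35S GPT2 panel has none.

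Both comparisons share the Col-0 set 1 samples, so the lines were also compared directly. HCT-RNAi was higher than the libraries labelled gpt2-1 in 26 of the 37 genes (70.3%) and lower in PSBR alone, against 35.3% higher, 32.8% lower and 68.2% either way of all 20053 genes tested. The lines did not overlap in 30 of the 37, against 71.6% of all genes. The median log2 difference of the members was 0.21, also with LHCB1.5 at its bound, against 0.03 over all genes. Under total-count scaling, which moves the median of all genes by 0.22, all 37 were called higher, PSBR included. The members' median was then 0.42, against 0.25 over all genes, and the share of all genes called is not given here. The calls covered 7 of 8 LHCII genes, 4 of 5 minor antenna genes, 2 of 4 photosystem I antenna genes, 7 of 10 photosystem I subunits, 4 of 5 oxygen-evolving proteins, PSBX and PSBS. Without LHCB1.5, PSAG and PSAE1, 23 of 34 were higher.

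The largest differences apart from those 3 genes were LHCB1.4 at 0.92 (SE 0.06, edgeR adjusted p = 4.78e-13), LHCB1.2 at 0.79 (SE 0.04, adjusted p = 3.95e-15), LHCB6 at 0.73 (SE 0.05, adjusted p = 1.53e-13) and PSBS at 0.67 (SE 0.04, adjusted p = 2.47e-14). LHCB1.4 had 540.3, 568 and 619 CPM in HCT-RNAi and 294, 301 and 318 in the libraries labelled gpt2-1. PSBS had 557, 573 and 567 CPM in HCT-RNAi and 357, 368 and 339.8 in the libraries labelled gpt2-1. The sum of LHCB1.1 to LHCB1.4 was 0.52 higher (SE 0.05, edgeR adjusted p = 7.99e-10). PSBR was -0.12 (SE 0.04, edgeR adjusted p = 0.0179) and turned to 0.09 under total-count scaling (adjusted p = 0.0462 by edgeR). It was no longer called without HCT-RNAi sample 1 or sample 2 or without sample 3 labelled gpt2-1. LHCB2.1, LHCB4.2, LHCA2, LHCA3, PSAF, PSAL, PSAN, PSBQ2, PSBW and PSBY were not called, at -0.05 to 0.10.

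In 35S GPT2 stems, 33 of the 37 genes stood above Col-0 set 2 and 4 below it, but none was called by edgeR without pairing, against 1.4% higher, 1.11% lower and 2.52% either way of 18364 genes tested. The groups did not overlap in 7 of the 37, against 21.4% of all genes. Unadjusted p was under 0.05 for 8 members, and DESeq2 called 2 (LHCB2.1 and LHCA4). The shares of all genes under these rules are not given here, so both counts have no background. The members' median log2 fold change was 0.30, against 0.02 over all genes. The spread between samples was larger here than in trial 1, with a biological coefficient of variation of 0.234 against 0.0402. Samples with the same number deviated together in trial 2, and with the sample number as a block 11 members rose (29.7%), against 3.36% of all genes, and none fell, against 2.65%. These were LHCB1.1, LHCB2.1, LHCB2.2, LHCB3, LHCA4, PSAF, PSAH2, PSAK, PSAO, PSBQ1 and PSBW.

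As no member was called without the block, the 6 genes given in full were chosen after their values were seen, by the smallest p with the block. LHCB2.1 had 439, 337 and 499 CPM in 35S GPT2 and 296, 191 and 271 in Col-0 set 2, a difference of 0.75 on the log2 scale (SE 0.21, adjusted p = 0.104 by edgeR; with the block 0.76, adjusted p = 0.00326). LHCB2.2 had 397, 264 and 421 CPM in 35S GPT2 and 258, 177 and 247 in Col-0 set 2 (0.67, SE 0.21, edgeR adjusted p = 0.17; with the block 0.66, adjusted p = 0.0048). LHCB3 had 1220, 1057 and 1455 CPM in 35S GPT2 and 974, 607 and 886 in Col-0 set 2 (0.60, SE 0.21, edgeR adjusted p = 0.228; with the block 0.61, adjusted p = 0.0136). In these LHCII genes all 35S GPT2 samples lay above all Col-0 set 2 samples, and sample 2 was the lowest of its group in both groups. LHCA4 had 2152, 2038 and 2339 CPM in 35S GPT2 and 1482, 1239 and 1541 in Col-0 set 2 (0.62, SE 0.17, edgeR adjusted p = 0.0944; with the block 0.62, adjusted p = 0.00472). PSAH2 had 414, 342 and 439 CPM in 35S GPT2 and 329, 213 and 268 in Col-0 set 2 (0.56, SE 0.19, edgeR adjusted p = 0.202; with the block 0.58, adjusted p = 0.0161). PSBQ1 had 532, 384 and 544 CPM in 35S GPT2 and 412, 289 and 381 in Col-0 set 2 (0.44, SE 0.20, edgeR adjusted p = 0.374; with the block 0.43, adjusted p = 0.0338). LHCA4 and PSAH2 did not overlap between the groups, and PSBQ1 did, through sample 2 of 35S GPT2.

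**Figure D5:**
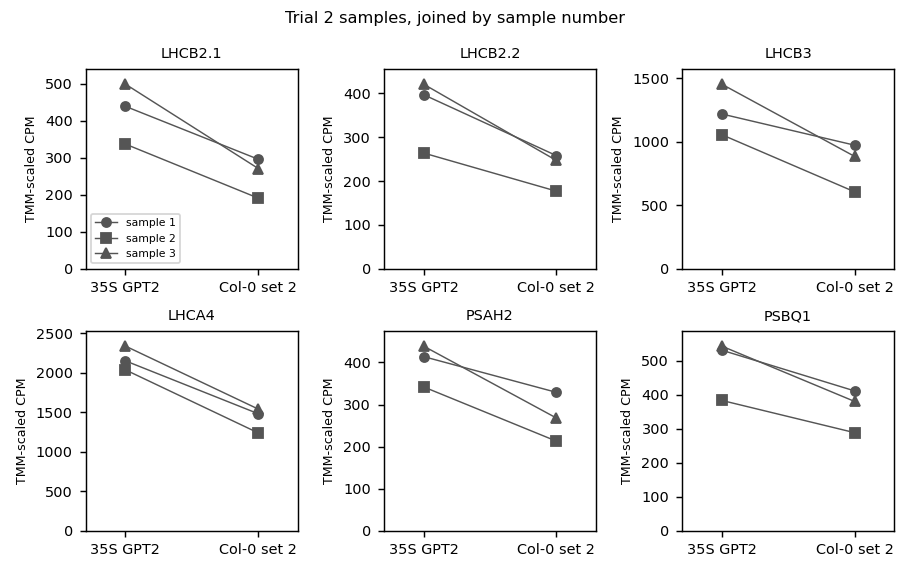
TMM-scaled CPM (y axis) of 6 genes in the 3 samples of 35S GPT2 and of Col-0 set 2 (x axis), with a line joining samples of the same number. In each panel all lines slope down from 35S GPT2 to Col-0 set 2, as for LHCB2.1 with 439, 337 and 499 in 35S GPT2 and 296, 191 and 271 in Col-0 set 2.

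Most other members also stood above Col-0 set 2. Of the 37 genes, 22 were higher in all 3 same-number pairs, 12 in 2 pairs, 2 in 1 pair and LHCB4.3 in none. The same count over all genes is not given here, so these numbers have no background beside them. The sum of LHCB1.1 to LHCB1.4 was 0.31 (SE 0.25, edgeR adjusted p = 0.667; with the block 0.31, adjusted p = 0.165). LHCB1.5, counted in both groups here, had 6913, 4721 and 9437 CPM in 35S GPT2 and 7958, 3731 and 5943 in Col-0 set 2 (0.26, SE 0.30, edgeR adjusted p = 0.774), and the groups overlapped. LHCB4.3 (-0.14), PSBS (-0.11), PSBO2 (-0.09) and PSAL (-0.04) were the 4 below 0, none called with or without the block. Without Col-0 set 2 sample 1, the shallowest of its group, edgeR without the block called 1 member, with no share of all genes given here.

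The effects of the 2 lines with high GPT2 counts, each against its own wild type, were tested against each other over all 15 samples. This fit shares 1 estimate of the spread between trials whose spreads differ, so the standard errors and calls rest on that pooling. For LHCA4, for example, the standard error of the difference was 0.14, against 0.17 for the trial 2 comparison alone. The 35S GPT2 effect was higher than that of the line labelled gpt2-1 in 8 genes and lower in none, against 9.32% higher and 13.0% lower of 20645 genes tested. The members' share was 21.6%, and 24 members (64.9%) were called with the sample number as a block, against 13.3% of all genes. That block also covers trial 1, where same-numbered samples did not deviate together. The median difference was 0.44 over the members and -0.04 over all genes, and 0.69 against 0.19 under total-count scaling, which called 26. For that count of 26 the share of all genes is not given here. The 8 genes were LHCB2.2 at 0.95 (SE 0.22, edgeR adjusted p = 0.00506), LHCB2.1 at 0.93 (SE 0.21, adjusted p = 0.00383), PSAH2 at 0.79 (SE 0.18, adjusted p = 0.00392), LHCA4 at 0.72 (SE 0.14, adjusted p = 0.00114), PSAD2 at 0.71 (SE 0.16, adjusted p = 0.00419), LHCB3 at 0.70 (SE 0.21, adjusted p = 0.0214), PSBQ1 at 0.69 (SE 0.19, adjusted p = 0.0135) and PSAN at 0.48 (SE 0.16, adjusted p = 0.0378). LHCB1.5, at 0 in both trial 1 groups, gets no value here. Without 35S GPT2 sample 2, the shallowest library, 18 members were called, and without Col-0 set 2 sample 1, 17. The shares of all genes called in these refits are not given here, so the counts cannot be set against a background.

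Other genes of the photosynthetic apparatus were taken from lists, which were chosen with earlier results of these data known. Their counts stand against 29.2% higher and 26.5% lower of all genes tested in HCT-RNAi, and 27.4% higher and 25.8% lower in the libraries labelled gpt2-1. Of 11 further nuclear photosystem genes, 9 rose and none fell in HCT-RNAi, and 0 rose and 6 fell in the libraries labelled gpt2-1. The largest without overlap in HCT-RNAi was LHCA6, a minor photosystem I antenna protein that links photosystem I to the NDH complex, with 32.2 ± 1.59 CPM in HCT-RNAi and 18.1 ± 0.312 in Col-0 set 1 (SD, n = 3 each; 0.83, edgeR adjusted p = 3.62e-11). PSB27, a photosystem II assembly factor, had 65.5 ± 3.08 CPM in the libraries labelled gpt2-1 and 84.7 ± 5.21 in Col-0 set 1 (-0.37, edgeR adjusted p = 5.38e-07). PSII 5 kDa and PSAH1, at 9.96 and 0.57 in HCT-RNAi, have 77.5% and 53.3% overlap. Of the 4 genes of this list without overlap, 3 rose in HCT-RNAi.

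Electron transport and ATP synthase genes had 7 of 11 higher and none lower in HCT-RNAi and none higher and 7 lower in the libraries labelled gpt2-1, with medians of 0.16 and -0.20. LFNR2, a ferredoxin-NADP reductase, had 451 ± 4.79 CPM in HCT-RNAi and 325 ± 13.3 in Col-0 set 1 (0.47, edgeR adjusted p = 1.08e-10). FD2, the main leaf ferredoxin, was 0.38 higher in HCT-RNAi and 0.37 lower in the libraries labelled gpt2-1 (-0.37, edgeR adjusted p = 6.85e-08). ATPD, the delta subunit of the chloroplast ATP synthase, fell most in the libraries labelled gpt2-1 (-0.76, edgeR adjusted p = 1.83e-13) and was not called in HCT-RNAi at -0.04.

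Chlorophyll synthesis had 9 of 14 genes higher and 1 lower in HCT-RNAi, and 1 higher and 11 lower in the libraries labelled gpt2-1, with medians of 0.35 and -0.41. PORB, a protochlorophyllide oxidoreductase, had 508 ± 10.6 CPM in HCT-RNAi, 109 ± 2.97 in the libraries labelled gpt2-1 and 352 ± 4.65 in Col-0 set 1, at 0.53 and -1.69 on the log2 scale (edgeR adjusted p = 4e-12 and 8.54e-23). DVR, the divinyl reductase, stood 1.01 higher in HCT-RNAi and at -0.87 in the libraries labelled gpt2-1. PORA fell in both, by 0.40 in HCT-RNAi and by 1.27 in the libraries labelled gpt2-1. HEMA1, which makes the first committed enzyme of the pathway, was the gene that rose in the libraries labelled gpt2-1 (0.47). GUN4, a regulator of magnesium chelatase, was 9.25 higher in HCT-RNAi with 73.0% overlap, and of the 6 genes of this list without overlap, 3 rose in HCT-RNAi and 1 fell.

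Chlorophyll breakdown had 1 of 7 genes higher and 4 lower in HCT-RNAi, led by the pheophytinase PPH (-0.47, edgeR adjusted p = 1.45e-09), and 1 higher and 2 lower in the libraries labelled gpt2-1, where PPH rose by 0.35 and the chlorophyll b reductase NYC1 fell by 0.51. Of 7 genes for antenna protein delivery and state kinases, 2 rose and 2 fell in HCT-RNAi, shares near those of all genes, with LTD at 2.33 under 59.5% overlap, and 1 rose and 2 fell in the libraries labelled gpt2-1. Of 10 regulators tested, 3 rose, a share near that of all genes, and 6 fell in HCT-RNAi, and 1 rose and 6 fell in the libraries labelled gpt2-1. GLK1 and GLK2, transcription factors known to activate antenna genes, fell by 0.86 and 0.60 in HCT-RNAi, and by 0.13 and 1.21 in the libraries labelled gpt2-1. GNC, a GATA factor that promotes greening, fell by 1.19 in HCT-RNAi and by 0.57 in the libraries labelled gpt2-1. The light stress list had 4 of 5 genes higher in HCT-RNAi and 3 in the libraries labelled gpt2-1, with 1 lower in each. ELIP1, an early light-induced protein, had 32.8 ± 5.67 CPM in HCT-RNAi, 2.56 ± 0.432 in the libraries labelled gpt2-1 and 1.16 ± 0.359 in Col-0 set 1.

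In 35S GPT2 against Col-0 set 2, no gene of these lists was called by edgeR without the block. In the difference of the 35S GPT2 effect from that of the line labelled gpt2-1, 7 of 14 chlorophyll synthesis genes were higher and 1 lower, with PORB at 1.68 and CAO, the chlorophyllide a oxygenase, at 1.00 (edgeR adjusted p = 2.57e-07 and 0.000995). Of electron transport genes 3 of 11 were higher, among them ATPD at 1.18. Over all genes tested for this difference, 9.32% were higher and 13.0% lower. In the direct comparison of HCT-RNAi with the libraries labelled gpt2-1, 13 of 14 chlorophyll synthesis genes were higher, with PORB at 2.21. So were 9 of 11 electron transport genes and 9 of 11 further photosystem genes. Over all genes tested there, 35.3% were higher and 32.8% lower. Among list genes without overlap, 5 of 6, 8 of 10 and 3 of 4 were higher, in the same order. The 6 plastid-encoded core subunits were not among the loci used, so they were not analysed here.

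Cell type markers were read in the same comparisons, and not all of them went the way of the members. Summed levels below are CPM without TMM scaling, while the calls use TMM scaling. Without TMM scaling the median log2 fold change of all genes in the libraries labelled gpt2-1 was itself -0.23. With TMM scaling the median of the chlorenchyma markers was -0.03 there and 0.05 in HCT-RNAi. Of 4 chlorenchyma markers, which encode Rubisco small subunits, Rubisco activase and carbonic anhydrase, 1 rose in HCT-RNAi (RBCS1A, 0.38) and none fell, and 1 rose (RCA, 0.23) and 1 fell (CA1, -0.28) in the libraries labelled gpt2-1. Their summed level was 8681 to 8756 CPM in HCT-RNAi, 6794 to 7283 in the libraries labelled gpt2-1 and 7685 to 8249 in Col-0 set 1, and 9559.5 to 11873 in 35S GPT2 and 11105 to 14804 in Col-0 set 2. The 2 cambium markers rose in HCT-RNAi and fell in the libraries labelled gpt2-1, at 129 to 141 CPM in HCT-RNAi, 49.9 to 58.6 in the libraries labelled gpt2-1 and 108 to 115 in Col-0 set 1, and stood at 142 to 166 CPM in 35S GPT2 and 149 to 186 in Col-0 set 2. Of 6 epidermis markers 5 fell in HCT-RNAi and 4 in the libraries labelled gpt2-1, with 1 higher in each, at 1582 to 1598 CPM in HCT-RNAi, 1114 to 1225 in the libraries labelled gpt2-1 and 2275 to 2357 in Col-0 set 1. They stood at 1661 to 2035 in 35S GPT2 and 1647 to 1953 in Col-0 set 2. Of 5 xylem and fibre markers 4 fell and 1 rose in HCT-RNAi, all 5 fell in the libraries labelled gpt2-1 and 2 rose in 35S GPT2 (XCP1 1.33 and XCP2 1.14). Their sum was 2899 to 3093 CPM in HCT-RNAi, 2399.8 to 2570.3 in the libraries labelled gpt2-1 and 3458 to 3686 in Col-0 set 1, and 2841 to 4531 in 35S GPT2 and 2012 to 2485 in Col-0 set 2. Of 3 phloem markers 1 fell in HCT-RNAi and 2 in the libraries labelled gpt2-1, with none higher. They summed to 329.9 to 351 CPM in HCT-RNAi, 274 to 294 in the libraries labelled gpt2-1 and 365 to 397 in Col-0 set 1, and 324 to 419 in 35S GPT2 and 331 to 509.9 in Col-0 set 2. No marker was at 0 in any group, and the part of tissue make-up in the results above was not tested.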

How the data were processed

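RNA sequencing was done on 15 stem samples from 60 sequencing records, with 4 records per sample sharing 1 table; they were counted as 1 sample. The authors deposited, for each sample, whole-number read counts by locus without normalisation. The submitters' processing notes name STAR, DESeq2 and the TAIR10 genome, and the labels' protocols a stranded mRNA kit; for the counting tool and its strand setting, no statement is given in the sources used here. Of 38186 rows, 219 name no locus (0.000322% to 0.00117% of counts) and were left out. Loci, exons, overlaps and sequences came from RefSeq TAIR10.1.

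In 5 tables the counts were read in the row order of the first 35S GPT2 table. The GPT2 row of the Col-0 set 2 tables as deposited held 34, 29 and 25 counts, the same as in Col-0 set 1, so AT1G64190, whose counts stand at that place, was left out of the trial 2 fits. This order was inferred from the counts.

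Counts were filtered with filterByExpr, scaled by TMM (trimmed mean of M-values) and tested with edgeR 4.0.16 (quasi-likelihood F test, group as the only term, R 4.3.3), with Benjamini-Hochberg adjustment over all genes tested and a threshold of 0.05. Trial 1 groups shared 1 fit of 9 samples, trial 2 was fitted on 6, and the difference of effects on all 15. Levels are TMM-scaled CPM within a trial and unscaled CPM across trials, except for PSAG in the overlap check, which is TMM-scaled within each trial. The script was tested on simulated data. Alternatives were DESeq2 1.42.0, RLE scaling, total counts, no filter, only the groups compared, genes without opposite-strand overlap, a replicate block, the labels as deposited and each sample left out. No replicates looked like 1 library deposited again (chi-square over degrees of freedom 1.95 to 33.4).

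Pairing was checked by the correlation, over genes, of same-numbered samples' deviations from their group means. In trial 2 it was 0.133, 0.335 and 0.202, over 0.1 in each pair, and -0.296 to 0.065 between samples of different number. The numbers thus pair those samples only as a pattern in the counts, and the labels give no shared batch or day. Deviations from a group mean are not independent of each other, and the calls with the block depend on this pairing.

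The genes and lists were chosen with earlier results of these data known. Full values are given, in each comparison, for up to 6 called members with the largest absolute log2 fold change and for LHCB1.5, and for up to 3 called genes of each other list. Floors of 3 counts cover counting error only.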

Additional observations from a re-analysis of the deposited data

Results flagged for a closer look

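In 8 genes the effect of the 35S GPT2 line against Col-0 set 2 differed from the effect of the line labelled gpt2-1 against Col-0 set 1 by the test of the difference itself (edgeR quasi-likelihood, adjusted over all genes tested). The fit shares 1 estimate of the spread between trials whose spreads differ, and the calls rest on that pooling. On the log2 scale the differences were 0.95 for LHCB2.2, 0.93 for LHCB2.1, 0.79 for PSAH2, 0.72 for LHCA4, 0.71 for PSAD2, 0.70 for LHCB3, 0.69 for PSBQ1 and 0.48 for PSAN. In 7 of the 8, PSAN being the exception, the fall in the libraries labelled gpt2-1 was itself past the threshold, and in none was the 35S GPT2 effect called without the block. LHCB3 was no longer past the threshold without 35S GPT2 sample 3 (0.57, adjusted p = 0.0557), Col-0 set 1 sample 1 (0.69, adjusted p = 0.06) or sample 2 (0.68, adjusted p = 0.0505), or sample 3 labelled gpt2-1 (0.65, adjusted p = 0.0627). GPT2 counts were high in both lines.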

How the results depend on the processing

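For HCT-RNAi against the libraries labelled gpt2-1, PSBR, called lower at -0.12, was called higher under total-count scaling (0.09, adjusted p = 0.0462); no other call of a member turned its direction under the alternatives run. In HCT-RNAi the 5 lower members became 1 when fitted on genes without opposite-strand overlap, and 2 to 10 with each sample left out; the 12 higher became 10 to 16. In trial 1 same-numbered samples correlated between -0.07 and 0.026, so they share only a number; with the replicate block 12 members were higher and 4 lower in HCT-RNAi (PSAD2 lost, adjusted p = 0.0507) and 24 lower in the libraries labelled gpt2-1. The block changed no other count of members in trial 1. The 24 lower members in the libraries labelled gpt2-1 became 16 to 31 with each sample left out, and the LHCB1.1 to LHCB1.4 sum there ranged from -0.25 to -0.13. In 35S GPT2 the members called higher were 11 with the replicate block, 2 with DESeq2, 1 with total counts and 0 to 1 with each sample left out; with the labels as deposited none was called. Of the genes of the other lists, markers included, 2 were called there, and 12 with the block, 9 with DESeq2, 4 without a filter, 1 on genes without overlap, 0 with the labels as deposited and 0 to 2 with each sample left out. For HCT-RNAi against the libraries labelled gpt2-1, the 1 lower member became 0 on genes without overlap and 0 with total counts, where it was called higher, and 0 to 1 with each sample left out, and the 69 list genes called became 43 on genes without overlap. For the difference of the 35S GPT2 and gpt2-1 effects, the 8 higher members became 24 with the replicate block, 26 with total counts, 4 on genes without overlap and 6 to 18 with each sample left out; the 30 list genes became 17 on genes without overlap and 21 to 36 with each sample left out. The LHCB1 sum, at 0.44 and not called, was 0.43 with the block (adjusted p = 0.0246) and 0.68 with total counts (adjusted p = 0.0251). Of the values of single named genes, 176 kept their side of the threshold and 9 gained a call under alternatives other than leaving out samples; with samples left out 215 kept their side and 7 lost a call. Where no share of all genes is given above, a count of calls under an alternative has no background beside it. Fits on genes without overlap hold fewer members by construction, and the cause of the other changes was not tested. The shallowest library, in trial 2, held 3827816 counts.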
